A study of Mus musculus with 28 samples.

Results

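The conjugating enzymes described here are 43 genes of 3 families: 10 UDP-glucuronosyltransferases (Ugt), 19 cytosolic glutathione transferases (Gst) and 14 sulfotransferases (Sult). They were taken by gene symbol from the 18974 genes measured on both array types of the study. The brightest probe set stood for each gene. The symbols sought were Ugt families 1, 2 and 3, the lettered Gst classes with a number, and every numbered Sult. The Ugt genes found were of families 2 and 3 only (1 Ugt2a, 7 Ugt2b and 2 Ugt3a genes). Probe sets of Ugt1a carry several symbols and were left out. Total RNA came from C57BL/6J mice, an inbred strain, labelled female, kept in groups on chow and fasted overnight before they were killed. The study set 24 months (103 weeks) against 6 months (24 weeks) of age to profile gene expression in metabolic tissues. One array type carried liver and quadriceps (thigh muscle) with 3 arrays for each age, the other heart and gastrocnemius (calf muscle) with 4, which makes 28 arrays. No group carried a drug or an engineered allele in the labels. Values are log2 expression, on which a difference of 1 means a doubling.

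Conjugation makes lipophilic compounds soluble enough to be excreted. Ugt enzymes sit in the endoplasmic reticulum and attach glucuronic acid from UDP-glucuronate to bilirubin, steroids and drugs, Gst enzymes attach glutathione to reactive electrophiles, and Sult enzymes transfer sulfate from the donor PAPS to phenols, steroids and bile acids. The liver is the main site of all 3 reactions, while several Gst enzymes also guard muscle and heart against products of lipid oxidation. Some of these genes differ between the sexes in mouse liver: Gstp1 is known to be higher in males, and Sult3a1 and several Sult2a genes in females.

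The sex label was not borne out by the arrays. Xist, the RNA that silences an X chromosome in females, lay below the array's gene median in 28 of 28 arrays (3.46 to 5.14). The Y-linked genes Eif2s3y (6.89 to 9.07), Kdm5d (6.26 to 7.98) and Uty (7.20 to 8.04) lay above it in 28 of 28. The mice are therefore called labelled female throughout. The tissues carried their defining transcripts. Hepatocyte markers averaged 13.62 to 13.69 in the liver arrays, and skeletal muscle markers 13.96 to 14.03 in quadriceps and 13.30 to 13.42 in gastrocnemius. Heart markers averaged 10.25 to 11.04 in young and 9.37 to 10.78 in old hearts. Of these 8 genes, 6 had a lower mean in old hearts, and the 4 with the largest differences were the atrial transcripts Bmp10 (-1.73), Sln (-1.48), Myl7 (-1.24) and Nppa (-1.04), all with overlapping ages and without passing. Transcripts of a neighbouring organ were present in some arrays. Exocrine pancreas markers averaged 9.73 in liver 24-month replicate 2 against 6.10 to 6.59 in the other liver arrays. The hepatocyte transcript Alb reached 11.91 in quadriceps 24-month replicate 1 and 9.54 in heart 6-month replicate 2. Whether each array came from an animal of its own is not in the labels, and the p-values cover only the spread among the arrays, which may be technical.

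The families were distributed very differently over the tissues. Liver carried all the Ugt genes measured here, among which Ugt1a was not included. All 10 Ugt genes had a 6-month or a 24-month mean at or above the median of all values there (6.72). In quadriceps, heart and gastrocnemius 0 of 10 did so. By the same rule, 17 of the 19 Gst genes lay at or above the tissue's median in liver, 14 in quadriceps, 15 in heart and 14 in gastrocnemius. Of the 14 Sult genes, 5 did so in liver, 1 in quadriceps and in heart, which was the phenol sulfotransferase Sult1a1 in both, and 2 in gastrocnemius, Sult1a1 and Sult5a1. Values below the median were not shown to exceed background. In bulk tissue, more cells of a type and more RNA per cell cannot be told apart.

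Liver and quadriceps were compared in a joint limma model with adjustment over all 19928 genes. The threshold was passed by 39 of 43 members, 31 higher in liver and 8 lower, where 68.2% of all genes passed, 40.7% in the first direction and 27.5% in the second. The 10 Ugt genes were all higher in liver, by 2.09 (Ugt2b37) to 8.45 (Ugt2b36, SE 0.29, adjusted p = 3.77e-12). Since every Ugt value in quadriceps lay near the bottom of the scale (3.19 to 5.60), these differences have no measured lower end. Of the Gst genes, 15 were higher in liver. Gsta3, an alpha class enzyme that also isomerises steroid precursors, stood 6.19 higher (SE 0.19), Gstm6 4.63 (SE 0.16) and Gstt1, a theta class enzyme acting on small halogenated compounds, 4.03 (SE 0.14). Gstm5 and Gstm2 of the mu class went the other way, at 2.21 and 0.82 log2 units below quadriceps (differences of -2.21, SE 0.09, and -0.82, SE 0.08). Gsto2 (-0.35) and Gstt4 (-0.43) were also lower in liver, both from values below the tissue medians. Among sulfotransferases, Sult1d1, which acts on catecholamines, was 7.49 higher in liver (SE 0.09) and Sult1b1, known for thyroid hormones, 4.73 (SE 0.18). Sult1e1, the estrogen sulfotransferase, was lower in liver (-1.16, SE 0.16, adjusted p = 2.12e-05), with liver values of 3.10, 3.03 and 3.59 and quadriceps values of 4.52, 4.16 and 4.52. Over all genes the median difference was 0.10, and between -0.06 and 0.00 after quantile, cyclic loess or median-centred scaling. Under these scalings 41 of 43 members kept their sign, the exceptions being Sult1c1 and Sult3a1, which had not passed.

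Heart and gastrocnemius differed less. Of 43 members, 35 passed the threshold, 32 higher in heart and 3 lower, where 75.5% of 30063 genes passed, 60.8% higher in heart and 14.7% lower. This tilt is shared by the arrays as a whole, since the median difference of all genes was 0.27. With each array centred on its median, 16 members were higher in heart and 9 lower, and 12 of the 43 changed sign under at least 1 of the 3 scalings. The largest differences kept their sign under all 3. Gstm7 was 2.33 higher in heart (SE 0.07, adjusted p = 7.01e-14), Gsta4, which clears hydroxynonenal, an aldehyde from lipid peroxidation, 2.23 (SE 0.09), and Gsto1, an omega class enzyme that reduces dehydroascorbate, 1.55 (SE 0.09). The 3 lower members were Sult1e1 (-0.98, SE 0.14), Gstm5 (-0.74, SE 0.09) and Gstp1, the pi class enzyme (-0.53, SE 0.05). Gstm5 and Sult1e1 were thus lower in both comparisons of another tissue with a limb muscle, measured on separate array types.

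**Figure D1:**
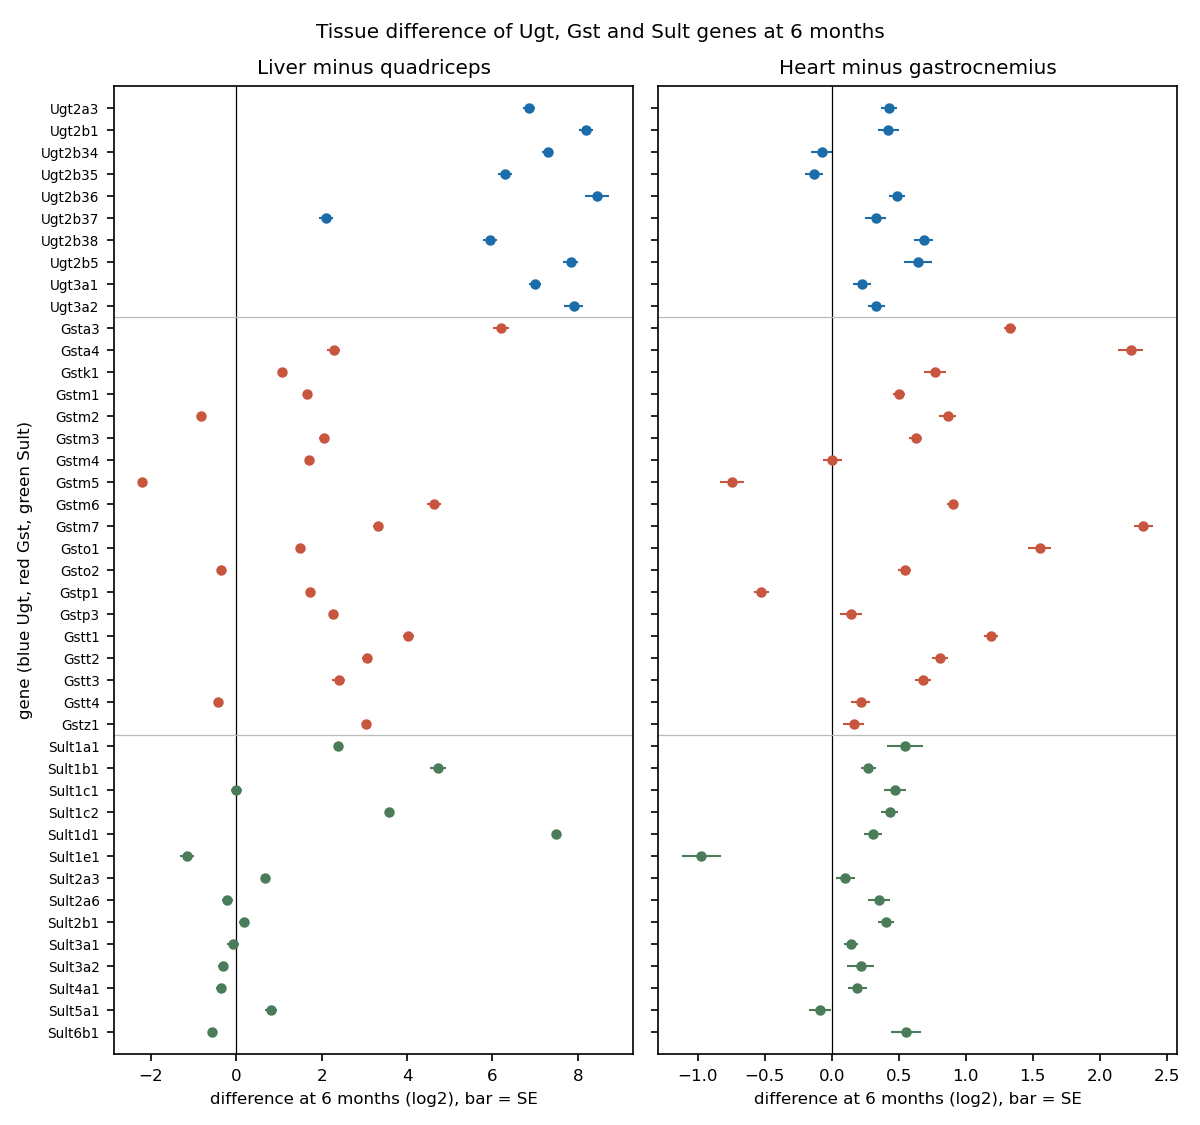
Difference in log2 expression between tissues at 6 months for the 43 genes, liver minus quadriceps (left, 3 arrays per tissue) and heart minus gastrocnemius (right, 4 arrays per tissue), on separate scales. Points are limma estimates and bars their SE. All 10 Ugt genes lie to the right in liver, from 2.09 to 8.45, and Gstm5 and Sult1e1 lie left of 0 in both panels.

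In old against young liver no single member passed the threshold, and the families leaned in opposite directions. Of the 10 Ugt genes, 8 had a lower mean at 24 months, with a median difference of -0.26. Of the 19 Gst genes, 14 had a higher mean (median 0.14), and of the 14 Sult genes 9 (median 0.10). The median over all genes was 0.03, and 10828 of them (54.3%) had a higher mean and 8991 a lower one. In quadriceps and in heart, too, 14 of the 19 Gst genes had a higher mean. Limma passed 0 of 43 members at an adjusted p under 0.05 (lowest adjusted p = 0.0522), where 0.326% of all 19928 genes passed. At an unadjusted p under 0.05 there were 11 members, against 32.8% of all genes: 6 were higher, against 18.4%, and 5 lower, against 14.4%. The signs of the Ugt and Gst medians held under each scaling, with array weights and without each array. The ranges were -0.37 to -0.11 for Ugt and 0.05 to 0.23 for Gst. Settings that change only the model of the spread leave these medians as they are and cannot test their signs. The age difference of all liver genes varied with their level. Over 10 equal classes of expression, counted from the lowest, the median difference was 0.06, 0.14, 0.18, 0.18, 0.15, 0.02, -0.09, -0.14, -0.14 and -0.08. The lowest class held 7 members, all of them Sult genes, and classes 1 to 5 together 11, namely 9 Sult genes, Gsto2 and Gstt4. The highest class held 23 members, 9 of them Ugt and 12 Gst genes. The part of the level in the family medians was not tested.

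Markers of other cells also differed between the liver arrays, 0 of them past the threshold. The 6 T and NK cell markers all had a higher mean at 24 months (median 0.31), and their average ran from 5.61 to 5.78 in young and from 5.95 to 6.18 in old livers. The 6 skeletal muscle markers were all higher (median 0.25, averages of 6.03 to 6.11 and 6.25 to 6.38), as were the 3 Schwann cell markers (0.30, 5.43 to 5.59 and 5.88 to 5.90). The 9 exocrine pancreas markers were higher as well (1.37), with an average of 9.73 in 24-month replicate 2. Their average was 6.59 and 6.19 in the other old livers and 6.10 to 6.28 in the young ones. Higher, too, were 7 of 8 heart markers (0.155), 5 of 7 adipocyte markers (0.24) and 4 of 5 B and plasma cell markers (0.42). The skeletal muscle, heart and Schwann cell averages lay below the liver's median of 6.72. Among all genes, expression classes 2 to 5 had median differences of 0.14 to 0.18. The part of the level in these marker differences was not tested. The 6 endothelial markers were all lower (median -0.10), with averages that overlapped between the ages. The hepatocyte average lay between 13.62 and 13.69 throughout. The part of these cells in the values of the conjugating enzymes was not tested.

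The largest difference of all 43 genes was in Ugt2b37. It read 7.34, 7.51 and 7.98 in the 6-month livers and 6.14, 6.79 and 6.38 in the 24-month livers. The ages did not overlap, and the difference of -1.17 (SE 0.19, adjusted p = 0.0522 by limma) just missed the threshold. Ugt2b38 read 10.44, 10.24 and 10.20 at 6 months and 9.23, 9.36 and 10.01 at 24 months. Here, too, the ages did not overlap, although the third old array came close to the young ones (difference -0.76, SE 0.18, adjusted p = 0.0581). Ugt2b1 read 12.13, 11.75 and 11.79 against 11.35, 11.57 and 11.71, again without overlap (-0.35, SE 0.13, adjusted p = 0.107). Ugt2b5 (-0.37) and Ugt2b35 (-0.36) leaned the same way with overlapping ages, the overlap arising in each from 24-month replicate 3. The other members of the family differed by less: Ugt2a3 by -0.18, Ugt2b36 by -0.05, Ugt2b34 by 0.10 and Ugt3a2 by -0.08. Ugt3a1, whose family uses sugars other than glucuronic acid, was higher by 0.18 without overlap (adjusted p = 0.154 by limma).

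Ugt2b37, Ugt2b38 and Ugt2b5 are close copies. With Ugt2b34, Ugt2b1, Ugt2b35, Ugt2b36, Ugt2a3, Sult1b1, Sult1d1 and Sult1e1 they form a run of 11 members on chromosome 5 in the RefSeq gene table, with at most 2 other protein-coding genes between neighbours. Their promoter windows (RefSeq, GRCm38.p6, 250 bases before to 50 after the start, all on the minus strand) are given to show how alike these 3 are. They lie at chr5:87254739-87255038 for Ugt2b37, chr5:87424154-87424453 for Ugt2b38 and chr5:87140291-87140590 for Ugt2b5. Capitals mark stretches of at least 15 bases present in all 3 windows, which cover 157 of 300 bases in each.
Ugt2b37: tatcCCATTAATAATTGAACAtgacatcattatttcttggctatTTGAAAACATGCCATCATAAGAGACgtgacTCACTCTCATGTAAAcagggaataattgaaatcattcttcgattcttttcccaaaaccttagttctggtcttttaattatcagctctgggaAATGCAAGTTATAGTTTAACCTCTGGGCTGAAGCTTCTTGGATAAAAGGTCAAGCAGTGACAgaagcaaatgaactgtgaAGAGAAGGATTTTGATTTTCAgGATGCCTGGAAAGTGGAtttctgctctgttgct
Ugt2b38: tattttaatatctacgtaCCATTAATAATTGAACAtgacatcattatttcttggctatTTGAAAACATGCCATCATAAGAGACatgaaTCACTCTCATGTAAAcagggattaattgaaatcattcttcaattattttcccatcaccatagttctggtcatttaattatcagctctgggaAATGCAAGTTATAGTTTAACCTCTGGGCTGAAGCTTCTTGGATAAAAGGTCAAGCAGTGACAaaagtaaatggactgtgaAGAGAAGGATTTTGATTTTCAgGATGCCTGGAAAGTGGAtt
Ugt2b5: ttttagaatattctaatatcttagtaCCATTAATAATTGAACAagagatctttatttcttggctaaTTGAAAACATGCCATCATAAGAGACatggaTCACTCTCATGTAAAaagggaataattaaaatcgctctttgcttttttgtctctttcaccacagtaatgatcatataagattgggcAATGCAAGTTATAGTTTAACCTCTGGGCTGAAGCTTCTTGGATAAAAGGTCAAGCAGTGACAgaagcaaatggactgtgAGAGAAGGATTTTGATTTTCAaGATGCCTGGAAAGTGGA
Aligned end to end, the windows of Ugt2b37 and Ugt2b38 were 86.9% identical, those of Ugt2b38 and Ugt2b5 84.2% and those of Ugt2b37 and Ugt2b5 76.2%, where the median over the 21 pairs of Ugt2b windows was 50.3%. The probe sequences of the arrays were not used here, so signal from one of these copies on another's probe set was not tested. Ugt2b36, outside the closest trio but in the same run, read 12.64, 12.39 and 12.27 at 6 months and 12.35, 12.28 and 12.53 at 24 months, with overlapping ages.

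Among the glutathione transferases of liver, the theta class held the largest differences. Gstt1 read 11.88, 11.64 and 11.63 at 6 months and 12.07, 12.10 and 12.11 at 24 months. All old arrays lay above all young ones, and the difference was 0.38 (SE 0.09, adjusted p = 0.0573). Gstt3 read 9.35, 8.64 and 8.95 against 9.96, 9.50 and 9.63, also without overlap (0.72, SE 0.18, adjusted p = 0.0587). Gstt4 differed by 0.40 (SE 0.11, adjusted p = 0.0678) at a level below the tissue's median. Gstt2, the remaining theta gene of this chromosome 10 run, differed by -0.12 with overlapping ages. In the alpha class, Gsta3 differed by 0.34 (adjusted p = 0.135) with 1 young array, 12.45, inside the old range, and Gsta4 by 0.15. In the mu class 5 of 7 genes had a higher mean and 2 a lower one, from 0.24 in Gstm6 to -0.15 in Gstm4, and Gstm4 was its only member whose ages did not overlap. The omega enzymes parted: Gsto1 read 9.69, 9.70 and 9.75 against 9.37, 9.36 and 9.65, lower without overlap (-0.25, SE 0.10, adjusted p = 0.112), and Gsto2 differed by 0.22. Gstp1 read 13.73, 13.71 and 13.60 at 6 months and 13.51, 13.50 and 13.52 at 24 months, a narrow separation (-0.17, SE 0.08, adjusted p = 0.155). The kappa enzyme Gstk1 of mitochondria and peroxisomes (0.05) and Gstz1, which acts in tyrosine breakdown (0.04), differed little, both with overlapping ages.

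Sult1a1 had the smallest p of the liver sulfotransferases. It read 10.57, 10.55 and 10.60 in young livers and 10.82, 10.82 and 10.90 in old ones, a separation several times the spread within an age (0.27, SE 0.07, adjusted p = 0.0641). Sult1c2 read 7.42, 7.39 and 7.43 against 7.63, 7.44 and 7.90, without overlap but with a much wider spread among the old arrays (0.24, SE 0.11, adjusted p = 0.171). Sult1d1 (0.13) and Sult1b1 (0.02) overlapped between ages, and Sult1b1 spread from 7.42 to 8.30 among the old arrays alone. The female-predominant genes were at the bottom of the scale in these livers: Sult3a1 read 2.92, 2.75 and 2.80 at 6 months and 2.39, 3.0 and 2.79 at 24 months, and Sult2a3 and Sult2a6 lay between 3.09 and 3.85. These low values stood beside the Xist and Y-linked readings given above.

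**Figure D2:**
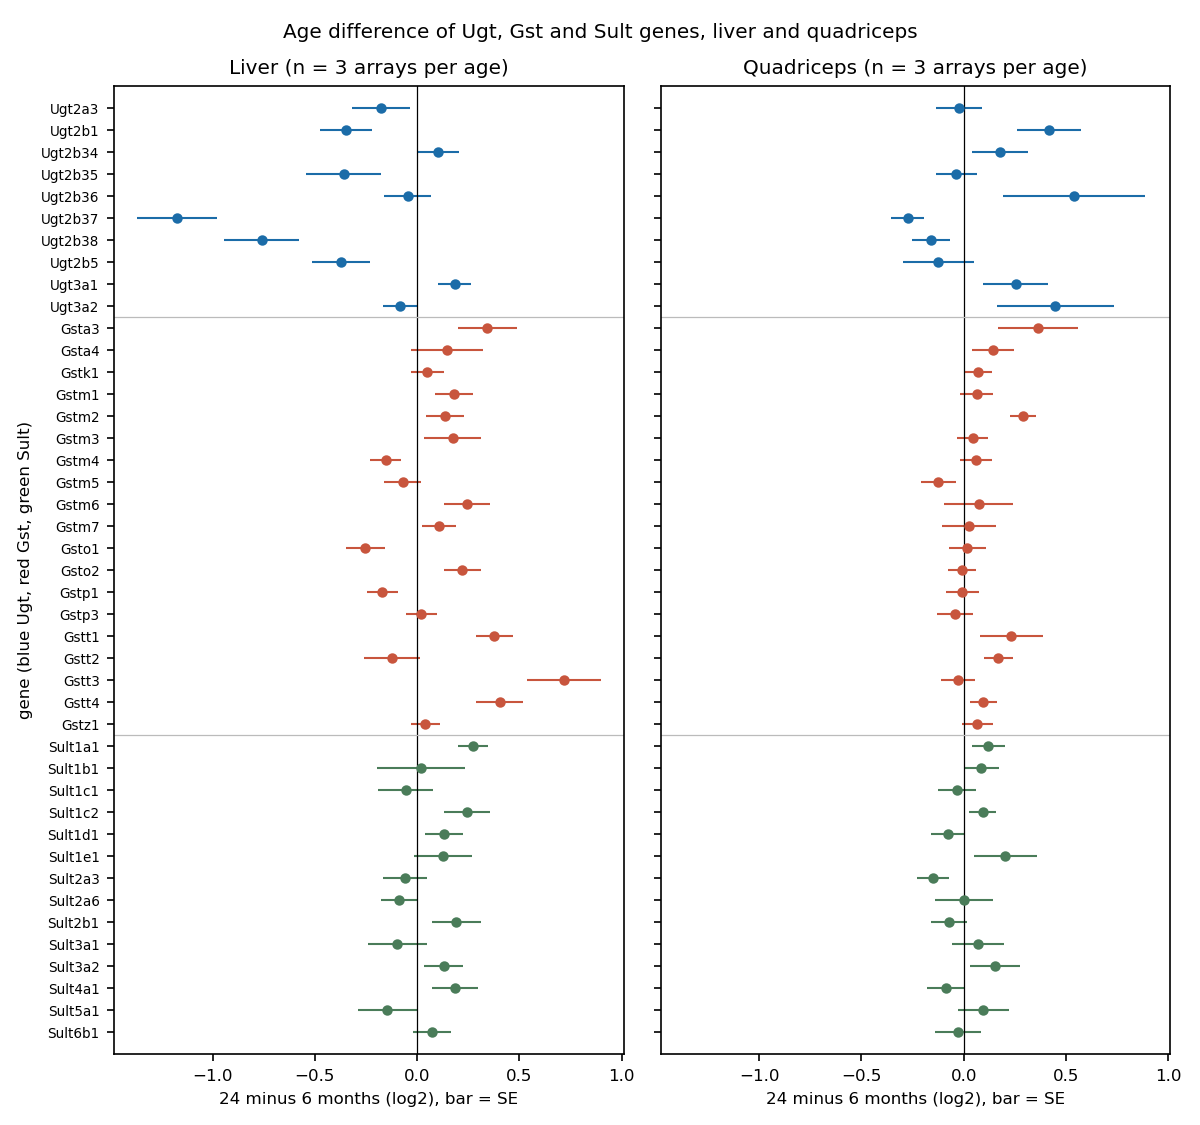
Age difference in log2 expression (24 minus 6 months) of the 43 genes in liver (left) and quadriceps (right), 3 arrays per age in each, on a shared scale. Points are limma estimates and bars their SE. In liver 8 of 10 Ugt genes lie left of 0. In both tissues 14 of 19 Gst genes lie right of it, and 0 of the 43 passed the threshold in either tissue.

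**Figure D3:**
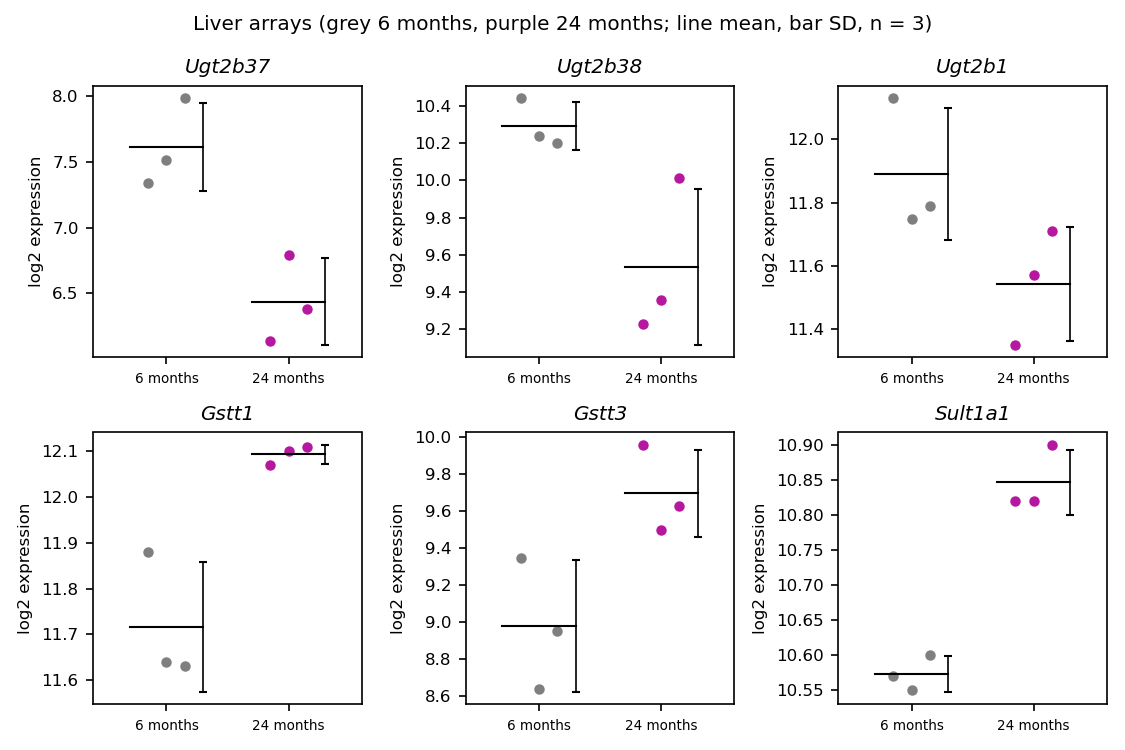
Log2 expression of Ugt2b37, Ugt2b38, Ugt2b1, Gstt1, Gstt3 and Sult1a1 in each liver array at 6 and 24 months, on a scale of its own per gene. Points are arrays, horizontal lines means and bars SD (n = 3). In each of the 6 panels the ages do not overlap, the Ugt genes being lower and the others higher at 24 months.

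In liver the ages did not overlap for 13 members, against 36.1% of all genes: 7 were higher and 6 lower, where 18.7% of all genes were higher and 17.4% lower in this way, so the shares among members were near those of all genes. The call of these genes depended on the spread model and on 1 array. Without 24-month replicate 3, limma passed 10 of 43 members and 5073 of 19928 genes. With array weights it passed 13 of 43 members and 7897 of 19928 genes. Ugt2b37, Ugt2b38, Gstt1, Gstt3 and Sult1a1 were among those that passed in both. Without replicate 2, the array with pancreas transcripts, Ugt2b37 differed by -1.35, Ugt2b38 by -0.67, Gstt1 by 0.37, Gstt3 by 0.82 and Sult1a1 by 0.29, and 0 members passed.

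The genes that supply and regulate these enzymes were read from 9 lists. Of 8 measured genes for UDP-glucuronate supply and glucuronide removal, 7 had a lower mean in old liver (median -0.13) and 0 passed. Slc35b1 (-0.36, adjusted p = 0.0610) and Pgm2 (-0.32, adjusted p = 0.0823) had the smallest p. For PAPS supply and sulfate removal, 4 of 8 were lower, among them Tst (-0.45) and Bpnt1, which degrades the spent donor (-0.24). Of 18 genes of glutathione synthesis and turnover, 10 were higher and 7 lower, and their median of 0.03 equalled that of all genes at this rounding. The smallest p belonged to Oplah (-0.30) and glutathione reductase, Gsr (-0.26), both lower. The membrane-bound glutathione transferases of the MAPEG family were higher in 5 of 6, with Mgst1 at -0.15 and Mgst3 at 0.21. Of 13 other conjugating and hydrolysing enzymes 11 were lower, led by Tpmt (-0.28) and Baat (-0.23).

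Among 19 regulators, 12 had a higher mean in old liver and 0 passed. Ahr, the aryl hydrocarbon receptor, went from 9.30 ± 0.12 to 9.88 ± 0.16 (SD, n = 3; difference 0.58, adjusted p = 0.0543), and Cux2, a female-predominant repressor, differed by 0.34. Of 15 targets of the transcription factor NRF2 outside the 3 families, 9 were lower, and Osgin1 fell by 0.75 (SE 0.11, adjusted p = 0.0493). Of 11 targets of CAR, PXR and AHR 7 were higher, with Cyp2b10 at 0.73 and Cyp1b1 at 0.48 and 0 past the threshold. Of 15 transporters 8 were lower, and Abcg2, an efflux pump that exports sulfate conjugates, fell by 0.69 (SE 0.09, adjusted p = 0.0493), while Slco1a1 differed by -0.64. Of all genes in liver 65 passed, and this count changed with each array left out: limma passed 12 without 6-month replicate 1, 0 without 6-month replicate 2 or 3, 1 without 24-month replicate 1 or 2, and 5073 without 24-month replicate 3. In quadriceps, heart and gastrocnemius 0 genes of these 9 lists passed. Of the NRF2 targets measured, 13 of 13 had a higher mean in old heart (median 0.05, all genes 0.01). In quadriceps 11 of 15 had a lower mean (-0.03, all genes 0.01), and in gastrocnemius 10 of 13 (-0.09, all genes 0.015).

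In quadriceps, 0 of 43 members passed the threshold, where 0.00502% of all genes did (lowest adjusted p = 0.558). At an unadjusted p under 0.05 there were 4 members, against 7.06% of all genes: 3 were higher (3.80%), Gstm2, Gstt2 and Ugt2b1, and 1 was lower (3.26%), Ugt2b37. The ages did not overlap for 6 members, against 12.0% of all genes, 4 of them higher (6.69%) and 2 lower (5.33%). Gstm2, a mu class enzyme, read 10.13, 10.14 and 10.04 at 6 months and 10.37, 10.40 and 10.41 at 24 months, without overlap (0.29, SE 0.06). Gstt2 was higher without overlap as well, by 0.17, and Ugt2b37 lower, at 5.47, 5.60 and 5.48 against 5.37, 5.19 and 5.17 (-0.27), below the tissue's median of 6.56. Gstm1 (0.06), Gstp1 (-0.01) and Gstk1 (0.07) differed little. Of the 19 Gst genes 14 had a higher mean at 24 months (median 0.06, all genes 0.01), where 52.3% of all genes did. The widest values belonged to liver-rich genes in 1 array: Ugt2b36 read 4.21, 4.03 and 3.72 at 6 months and 5.45, 3.90 and 4.23 at 24 months, and Ugt3a2 4.63, 4.26 and 4.14 against 5.47, 4.73 and 4.17. Both were highest in 24-month replicate 1. Alb there was 11.91, against 7.58 to 10.45 in the other quadriceps arrays, and the mean of 8 hepatocyte markers was 8.58 against 6.53 to 7.58. Their part in these values was not tested. Without that array the median difference of the 10 Ugt genes was -0.01 instead of 0.08.

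In heart the members hardly differed between the ages. Differences lay between -0.13 and 0.18, 0 of 43 passed (lowest adjusted p = 0.658) and 0.00665% of all genes did. At an unadjusted p under 0.05 there were 3 members, against 5.99% of all genes: 2 were higher (3.89%) and 1 lower (2.10%). The ages did not overlap for 2 members, against 3.29% of all genes, 1 higher (1.94%) and 1 lower (1.36%). Gsta4 read 9.48, 9.47, 9.57 and 9.33 at 6 months and 9.69, 9.60, 9.77 and 9.52 at 24 months, overlapping by 1 array on each side (0.18, SE 0.07). Gstm3 was higher without overlap by 0.11, and Sult1c2 lower without overlap (-0.12), the latter at a level below the tissue's median of 5.90. Of the 19 Gst genes 14 had a higher mean at 24 months (median 0.04, all genes 0.01), where 55.3% of all genes did. They included all 4 theta genes and 6 of 7 mu genes, none of these higher by more than 0.13. The Ugt genes, all between 2.84 and 4.08, differed by -0.13 to 0.06. The 9 hepatocyte markers (median -0.29), 6 endothelial markers (-0.10) and 5 fibroblast markers (-0.12) all had a lower mean in old hearts, with 0 past the threshold, and their part, like that of the atrial transcripts, was not tested.

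In old gastrocnemius most glutathione transferases had a lower mean. They were 16 of the 19 Gst genes (median -0.10, all genes 0.02), including all 7 mu genes (median -0.17). Of all 30063 genes 13225 had a lower mean and 16546 (55.0%) a higher one. The Gst median stayed below 0 under each scaling, with dim genes left out, with array weights and without each array, from -0.17 to -0.05. Settings that change only the model of the spread cannot move it. The age difference of all genes in this tissue also varied with level, from a median of 0.055 in the lowest of the 10 expression classes to -0.08 in the highest. Classes 6 to 10, with medians from 0.015 to -0.08, held 14 of the 19 Gst genes. The part of the level in the Gst median was not tested. Limma passed 0 of 43 members (lowest adjusted p = 0.0792), where 0.00998% of all 30063 genes passed. An unadjusted p under 0.05 was found for 7 members, against 16.5% of all genes: 5 were lower (9.05%), all of them Gst genes, and 2 higher (7.44%), both Sult genes. The ages did not overlap for 6 members, against 8.65% of all genes, 4 of them lower (4.78%) and 2 higher (3.86%).

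Gstp1 read 10.69, 10.86, 10.78 and 10.83 in the 6-month muscles and 10.38, 10.32, 10.54 and 10.29 in the 24-month muscles. All old arrays lay below all young ones, with a difference of -0.41 (SE 0.07, adjusted p = 0.0792). Gstm5 read 8.41, 8.60, 8.67 and 8.66 against 8.01, 8.29, 8.33 and 8.39 (-0.33, SE 0.09, adjusted p = 0.146). Gstm1 read 10.79, 10.89, 10.88 and 10.82 against 10.61, 10.69, 10.65 and 10.76 (-0.17, SE 0.05, adjusted p = 0.167). Neither of these mu genes overlapped between ages, and neither did Gstm3 (-0.19). Gstm4 overlapped at -0.21, and Gstm2, Gstm6 and Gstm7 lay between -0.10 and -0.02. Gsto1 (-0.21), Gstz1 (-0.16), Gsta4 (-0.14) and Gstk1 (-0.12) were lower with overlap, and Gstt4 (0.11), Gstt3 (0.09) and Gsta3 (0.02) were the Gst genes with a higher mean.

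Sult1e1 lay on the other side, with a higher mean in old muscle. It read 3.88, 3.82, 3.84 and 4.12 at 6 months and 4.49, 5.31, 4.75 and 5.35 at 24 months. The old arrays all lay above the young ones, and the difference of 1.06 (SE 0.18, adjusted p = 0.0873) was the largest of the 43 in this tissue. Every one of these values lay under the tissue's median of 5.58. Sult3a1 was higher without overlap by 0.16, at 2.13 to 2.41, a level at the floor of the scale. Sult1a1 (-0.14) and Sult5a1 (-0.12) overlapped between ages, and the Ugt genes, between 2.73 and 3.80, differed by at most 0.11.

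The markers of non-muscle cells in the same arrays, of which 0 passed the threshold, read as follows. All 6 endothelial markers had a lower mean at 24 months (median -0.27), and their average ran from 7.66 to 8.01 in young and from 7.34 to 7.84 in old arrays. Of 5 fibroblast markers 4 were lower (median -0.37), with averages of 8.20 to 8.46 and 7.99 to 8.21, led by the collagens Col1a1 (-0.51), Col1a2 (-0.38) and Col3a1 (-0.37). All 6 macrophage markers were higher (median 0.18), with averages of 5.98 to 6.02 and 6.12 to 6.34. The 6 T and NK cell markers (median 0.12) and the 5 B and plasma cell markers (0.24) were all higher, and the 3 Schwann cell markers all lower (-0.03). Of 7 adipocyte markers 5 were higher (0.06). The part of these cells in the Gst and Sult1e1 values was not tested.

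**Figure D4:**
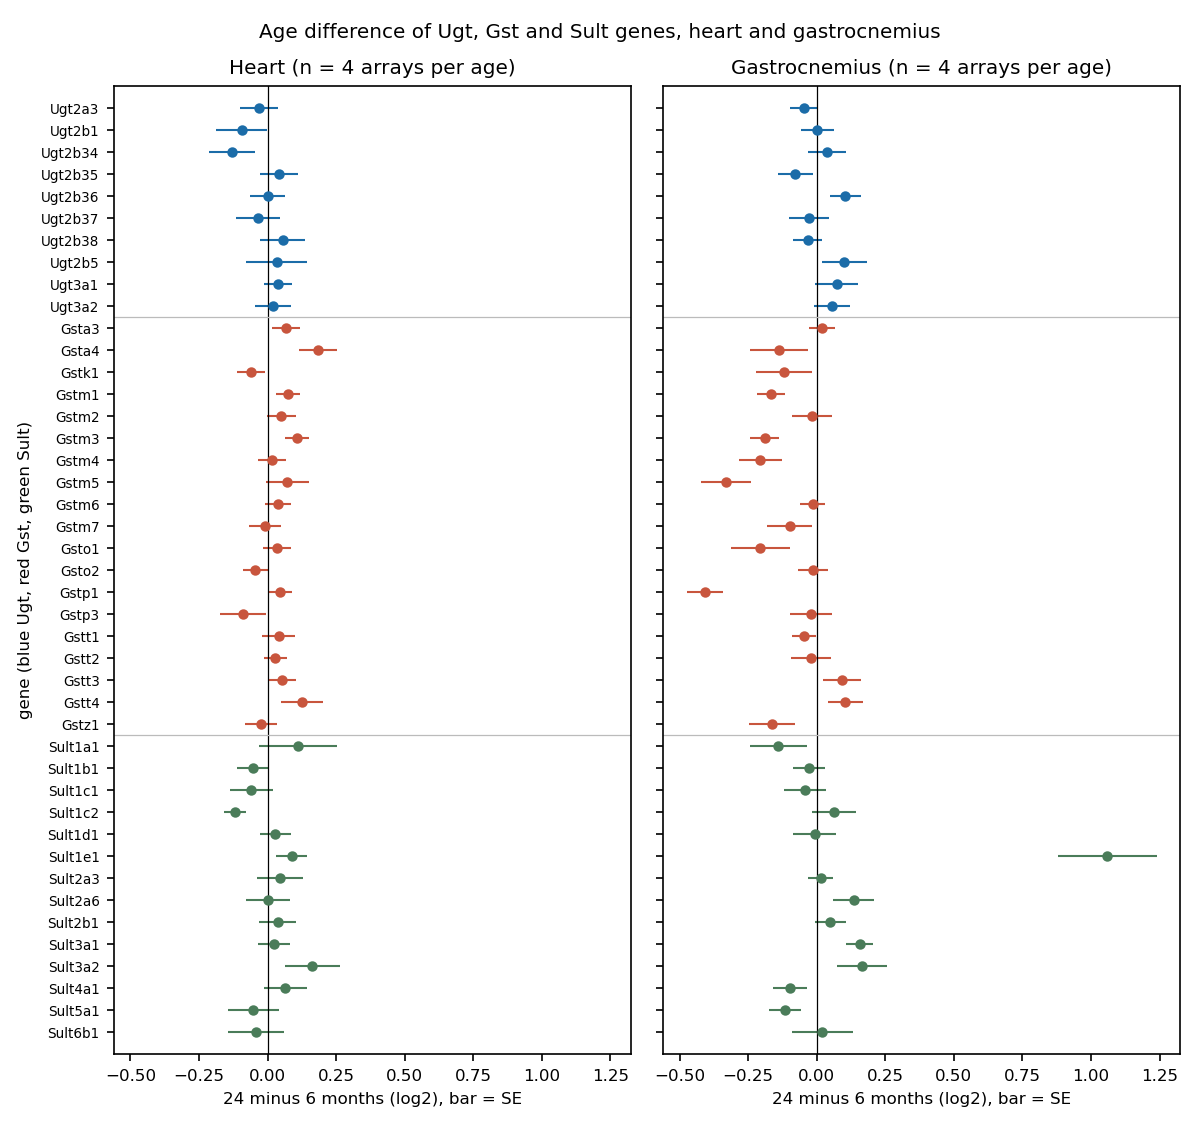
Age difference in log2 expression (24 minus 6 months) of the 43 genes in heart (left) and gastrocnemius (right), 4 arrays per age in each, on a shared scale. Points are limma estimates and bars their SE. Heart values lie between -0.13 and 0.18, while in gastrocnemius Gstp1 lies at -0.41 and Sult1e1 at 1.06.

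The age difference itself was compared between heart and gastrocnemius as an interaction term. It passed for 2 of 43 members, Gstp1 and Sult1e1, where 0.595% of 30063 genes passed, 0.489% higher in heart, as Gstp1 was, and 0.106% lower, as Sult1e1 was. Gstp1 read 10.28, 10.28, 10.22 and 10.28 in young hearts and 10.36, 10.34, 10.27 and 10.27 in old ones, a difference of 0.05 against -0.41 in gastrocnemius. The age difference in heart minus that in gastrocnemius was 0.45 (SE 0.08, adjusted p = 0.0242 by limma). Sult1e1 read 3.09, 2.83, 2.94 and 2.90 in young hearts and 3.03, 3.01, 3.01 and 3.06 in old ones, close to the floor of the scale. Its age difference was 0.09 in heart and 1.06 in gastrocnemius, and their difference was -0.97 (SE 0.20, adjusted p = 0.0453). Gstm3 (0.30, adjusted p = 0.0528) and Gstm1 (0.24, adjusted p = 0.0916) did not pass. Gstp1 passed in 6 of 8 other settings (adjusted p = 0.00575 to 0.0944) and without each array in turn in 11 of 16. Its call ended without replicate 1 of either age in heart, and without 6-month replicate 2 or 3 or 24-month replicate 2 in gastrocnemius, and the difference lay between 0.42 and 0.51 over the 16. Sult1e1 passed in 4 of 7 and in 3 of 16, these being without gastrocnemius 24-month replicate 1 or 3 or 6-month replicate 4, and read -1.13 to -0.85. Quantile scaling and cyclic loess ended both calls, at 0.36 and 0.33 for Gstp1 and -0.95 and -0.94 for Sult1e1.

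**Figure D5:**
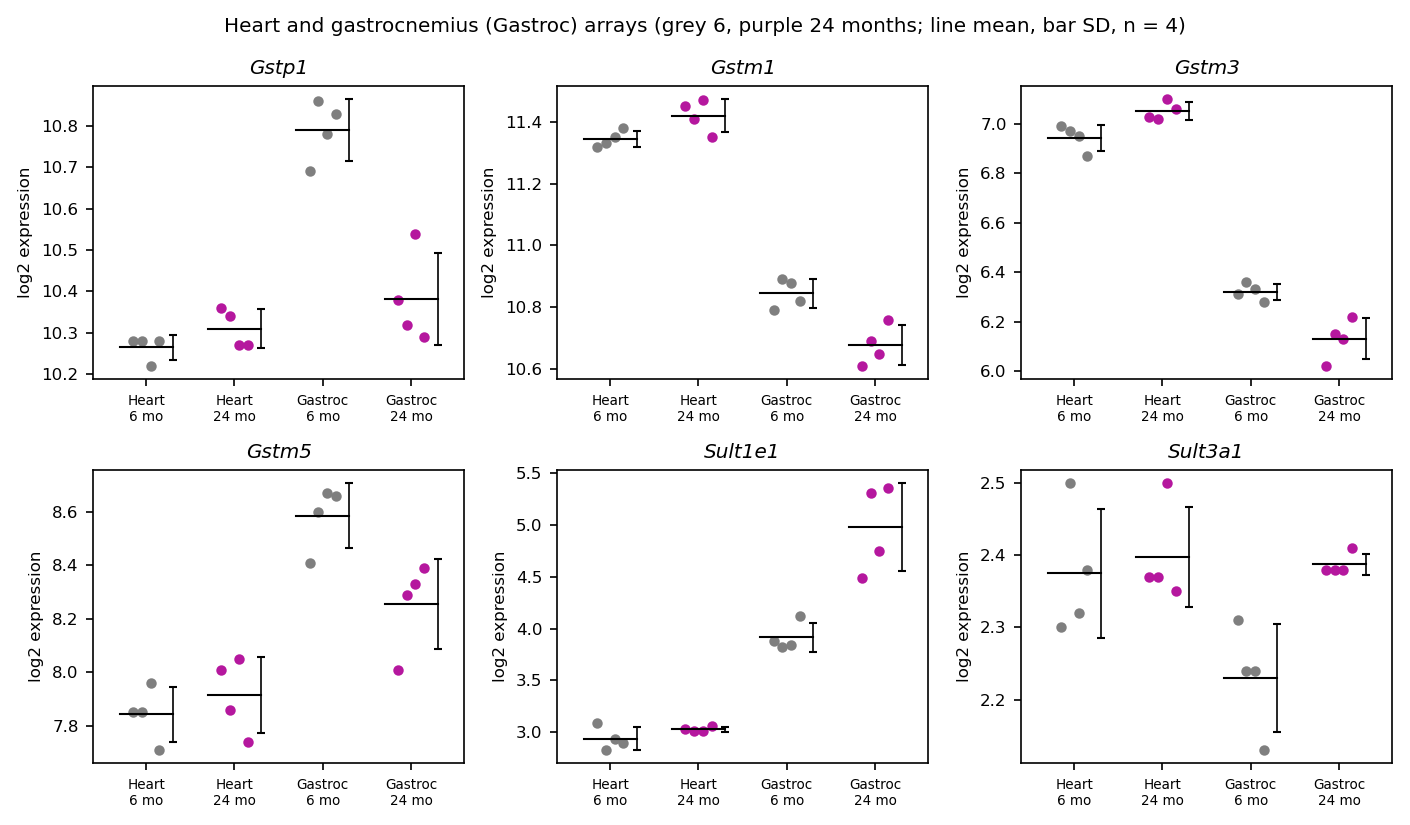
Log2 expression of Gstp1, Gstm1, Gstm3, Gstm5, Sult1e1 and Sult3a1 in each heart and gastrocnemius (Gastroc) array at 6 and 24 months, on a scale of its own per gene. Points are arrays, horizontal lines means and bars SD (n = 4). In gastrocnemius the Gst genes are lower and the Sult genes higher at 24 months without overlap, while in heart Gstp1 and Sult1e1 overlap between ages.

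The same term between liver and quadriceps passed for 0 of 43 members, where 0.0151% of 19928 genes passed, 0.0100% lower in liver. The smallest p belonged to Ugt2b37, at -1.17 in liver and -0.27 in quadriceps (difference -0.90, SE 0.23, adjusted p = 0.104). Ugt2b1 followed at -0.35 and 0.42 (-0.76, SE 0.22, adjusted p = 0.120), then Gstt3 at 0.72 and -0.03 (0.74, SE 0.22, adjusted p = 0.126) and Ugt2b38 at -0.76 and -0.16 (-0.60, SE 0.23, adjusted p = 0.186). In quadriceps these Ugt genes lay below the tissue's median of 6.56, with 6-month means of 5.52 (Ugt2b37), 3.70 (Ugt2b1) and 4.35 (Ugt2b38). The liver transcript Alb ran from 7.58 to 11.91 in the same quadriceps arrays. The part of the low level and of liver transcripts in these terms was not tested. Without liver 24-month replicate 3, Ugt2b38 and Ugt2b1 passed. Between the limb muscles, which lay on different array types and could not be tested in 1 model, Gstp1 differed with age by -0.01 in quadriceps and -0.41 in gastrocnemius, and Sult1e1 by 0.20 and 1.06. Of the 43 members 23 had the same sign in both muscles (53.5%), against 51.3% of all genes measured in both.

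The promoter windows of Gstp1 and Sult1e1, the 2 genes whose age term passed between heart and gastrocnemius, are shown as a description. Whether their content bears on that term was not tested. The window of Gstp1 lies at chr19:4037863-4038162 and that of Sult1e1 at chr5:87591562-87591861, both on the minus strand of GRCm38.p6 (RefSeq). Capitals mark GCGTG, the core bound by AHR with its partner ARNT, whose first base lies 13 bases before the start in Gstp1.
Gstp1: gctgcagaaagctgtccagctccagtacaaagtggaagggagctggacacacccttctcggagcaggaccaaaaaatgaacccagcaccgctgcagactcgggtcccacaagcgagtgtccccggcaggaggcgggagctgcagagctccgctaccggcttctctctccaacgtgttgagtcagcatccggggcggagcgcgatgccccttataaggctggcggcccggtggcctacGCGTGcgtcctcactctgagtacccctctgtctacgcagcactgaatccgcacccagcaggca
Sult1e1: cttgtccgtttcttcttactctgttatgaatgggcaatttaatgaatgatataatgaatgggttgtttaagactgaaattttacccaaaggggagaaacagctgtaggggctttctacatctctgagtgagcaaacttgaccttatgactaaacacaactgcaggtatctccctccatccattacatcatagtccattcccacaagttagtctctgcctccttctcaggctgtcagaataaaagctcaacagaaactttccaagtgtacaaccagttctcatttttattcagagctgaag
Windows were found for 39 of 43 members (not for Gsta4, Gstt2, Sult4a1 and Ugt3a2) and searched on both strands. GCGTG was present in 6 of 39 (15.4%), against 32.5% of the windows of 27025 genes, and the antioxidant response core TGACNNNGC in 2 of 39 (5.13%), Gsta3 and Gstm5, against 12.5%. In Gstm5 the 2 motifs overlap. GTTAAT, a half-site of the liver factor HNF1, was present in 8 of 39 (20.5%), against 7.20%. This motif was added after the windows had been read, so its shares cannot test an excess in these genes. Gsta3, Sult1a1, Sult1d1, Ugt2a3 and Ugt3a1, which carry it, lay above the liver's median, and Sult2a3, Sult2a6 and Sult3a2, which carry it too, lay below, with 6-month means of 3.64, 3.31 and 2.35. A match describes the letters of the window and no binding.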

How the data were processed

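RNA of 28 samples was hybridised to 2 Affymetrix array types after whole-transcript amplification, per the labels' protocols. The authors deposited log2 expression values, 1 per probe set and array, with RMA named in the submitters' processing notes (version and genome build not given in the sources used here). RMA normalizes arrays to each other, so a shift common to most genes can be removed. Probe sets with 1 gene symbol were kept (21797 and 30604), with the one of highest mean per gene, leaving 19928 and 30063 genes. Ugt1a and other members whose probe sets carry several symbols (12 and 3 probe sets) and 8 genes measured on 1 array type only were left out. Gstm3 and Sult6b1 had a second probe set, at 0.33 against 0.17 in liver for Gstm3 and at -0.07 against -0.04 in heart for Sult6b1.

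Ages were compared per tissue with limma 3.58.1 in R 4.3.3 (lmFit and eBayes, two-sided, Benjamini-Hochberg over all genes, threshold 0.05). Tissue and age-by-tissue terms came from a model of both tissues of an array type. The fits were also run on simulated data with noise drawn independently for each gene and array. Such noise holds no variation shared by the genes of an array, so that run does not cover the dependence on single arrays. The members, lists and tests were chosen with earlier results of these data known, by rules that name every member past the threshold, in each family the 6 of smallest p in liver and 3 elsewhere and the 3 of highest 6-month mean, and of each pathway list the genes past the threshold or the 2 of smallest p in liver. Others were named after their values were seen. Pairs of near-identical proteins were part of the rule and not analysed here. Alternatives were quantile, cyclic loess and median-centred scaling, dim genes left out, the mean of a gene's probe sets, an intensity trend with robust prior, joint fits, weighted arrays, a block for the replicate number and each array left out. Deposited array data have no read depth; the number of arrays limits the precision (median SE 0.10, 0.08, 0.06 and 0.07 in liver, quadriceps, heart and gastrocnemius).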

Additional observations from a re-analysis of the deposited data

Results flagged for a closer look

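The age difference of Gstp1 differed between heart and gastrocnemius by 0.45 (adjusted p = 0.0242) and that of Sult1e1 by -0.97 (adjusted p = 0.0453), by the interaction term of the joint limma fit. Of 62 groups of 4 arrays of the named genes, 6 held an array far from the other 3, where chance gives about 1 in 20. These were Gstk1 in old gastrocnemius (9.66, the others 9.27 to 9.33), Gstp1 in young heart (10.22, the others 10.28), Sult1c2 in old heart (3.64, the others 3.70), Sult3a1 in old gastrocnemius (2.41, the others 2.38), Ugt2b1 in old heart (3.16, the others 3.26 to 3.28) and Ugt2b5 in old gastrocnemius (3.45, the others 3.16 to 3.17). In Gstp1, Sult1c2 and Sult3a1 the other 3 arrays were equal to 2 decimals, so that a gap of 0.03 to 0.06 was enough.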

How the results depend on the processing

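Members passing in liver went from 0 to 3 with cyclic loess or centring, 5 with dim genes left out, an intensity trend or the joint fit, and 13 with array weights; leaving out 1 array gave 0 to 10. In gastrocnemius 0 became 1 with dim genes left out, 3 in the joint fit and 2 with array weights, and stayed 0 without each array. The heart and gastrocnemius age term passed 0 members with quantile or cyclic loess scaling, 1 with centring, 4 with array weights and 0 to 3 without 1 array. Array weights gave 5 members in the liver and quadriceps age term, and leaving out 1 array 0 to 2. Of members with a tissue difference between heart and gastrocnemius, 14 passed among those not dim. Over all genes, liver passed 65, and 7 with quantile scaling, 214 with cyclic loess, 1960 with centring (347 higher and 1613 lower, against 28 and 37), 1764 without dim genes, 2243 with a trend, 3625 jointly, 7897 with weights and 0 to 5073 without 1 array. Quadriceps passed 1, and 9, 18, 15 and 8 without dim genes, with a trend, jointly and with weights, and 0 without any 1 array. Heart passed 2, and 10, 8 and 6 with quantile, cyclic loess and centring, 21, 14, 25 and 4 in the same 4 settings and 0 to 5 without 1 array. Gastrocnemius passed 3, and 1 with centring, 81, 9, 829 and 89 in those 4 settings and 0 to 70 without 1 array. The cause was not tested. Samples share only a replicate number (correlations of same-numbered deviations from -0.22 to 0.30), and with the replicate block 0 genes passed in each of the 4 tissues, 0 members did, and the heart and gastrocnemius age term kept 2 members. The age terms of Gstp1 and Sult1e1 kept their signs under each scaling, with array weights and without each array. Some called tissue differences between heart and gastrocnemius did not keep theirs. Gstt4, for example, went from 0.215 (adjusted p = 0.0138 by limma) to -0.154, -0.156 and -0.1025 with quantile, cyclic loess and median-centred scaling. Of the single-gene values under other settings, 669 were unchanged in call and 48 newly passed, 23 no longer passed and 13 moved by more than the replicate SD without a call.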
